A study of Mus musculus with 12 samples.

Results

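The question is how far the change seen with an Otub1 knockdown in mouse lung tumours differs from the change seen with a preparation called SFD@M. For each gene, the change in the libraries labelled OTUB1_KD against NC was set against the change in the SFD@M libraries against Blank. All 12 libraries, in 4 groups of 3, entered 1 fit. Of 15304 genes tested, 3536 differed between the changes (23.1%), and these genes are the members described here. OTUB1_KD tumours were made from cells of the mouse tumour line LLC (Lewis lung carcinoma) that carried a lentivirus against Otub1 before the tumour models were set up. NC tumours were made from LLC cells that carried a control lentivirus, and their genotype is labelled WT. SFD@M mice were WT, bore tumours and received SFD@M, which the labels do not describe further. Blank mice were WT, bore tumours and received saline, and their titles carry codes that begin with KD. The labels give no strain, age, dose or day, and none says whether a group's libraries stem from different animals; p-values then reflect the scatter among these libraries alone, possibly technical.

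Otub1 encodes a deubiquitinase, an enzyme that takes ubiquitin off proteins and that can also hold back ubiquitin-conjugating enzymes by binding them. It is known to stabilise the cystine importer SLC7A11 and the tumour suppressor p53, which links it to ferroptosis, a form of cell death by oxidised membrane lipids. Cells short of amino acids or under stress make the transcription factor ATF4, which turns on amino acid import and synthesis. Cells that sense foreign nucleic acid or cytokines turn on interferon-stimulated genes, and cells with damaged DNA turn on p53 targets such as Cdkn1a, an inhibitor of the cell cycle.

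The libraries held 16062814 to 18028825 counts. Levels of single genes below are CPM, counts scaled to the library total times a scaling factor of the library (TMM). Sums over lists are CPM of the library total without that factor. Where a value is given for each library, the order is that of replicates 1, 2 and 3. Counts of libraries within a group differed by 93.4 to 154 times the sampling variance in OTUB1_KD, 1.37 to 1.95 times in NC, 16.2 to 30.6 times in SFD@M and 1.3 to 1.53 times in Blank. The tissue label is lung cancer for all 12, but 15 markers of airway secretory cells summed to 14650 to 36430 CPM in OTUB1_KD, 1.54 to 2.14 in NC, 36510 to 42110 in SFD@M and 1.17 to 1.45 in Blank. In NC and in Blank 6 of these 15 stood at 0. Alveolar type 2 markers summed to 13690 to 30560 CPM in OTUB1_KD, 326 to 337 in NC, 28230 to 32010 in SFD@M and 590 to 603 in Blank. Both lists were far lower in NC and Blank than in OTUB1_KD and SFD@M, and the airway secretory genes were near or at 0 there. In bulk RNA, fewer cells of a type and less RNA per cell cannot be told apart. NC and Blank belong to separate arms of the study, so the control lentivirus, the saline, the arm and any batch cannot be told apart in a difference between them. The total of 3536 calls was 2089 to 2132 without any single NC or Blank library, 2317 to 2661 without an SFD@M library, and 4699, 5523 and 4106 without OTUB1_KD replicates 1, 2 and 3.

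The difference of the changes is the knockdown change (OTUB1_KD minus NC) minus the treatment change (SFD@M minus Blank), on the log2 scale of the edgeR fit. A value above 0 means that the knockdown change was the higher one. A gene was called where edgeR's quasi-likelihood test gave a Benjamini-Hochberg adjusted p under 0.05, and all adjusted p below come from that test across all genes. The difference was above 0 in 1645 called genes (10.7%) and below 0 in 1891 (12.4%), and 2131 differed by at least 2-fold. The median difference over all genes tested was −0.07. By themselves, the knockdown change was called in 76.5% of genes (44.3% higher and 32.2% lower in OTUB1_KD than in NC) and the treatment change in 81.5% (47.2% higher and 34.3% lower in SFD@M than in Blank).

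Unlike size was far more frequent than opposite sign. The treatment change was the larger of 2 called changes of the same sign in 1685 genes (47.7% of those called), and it alone was called in 961. The knockdown change was the larger in 239 and alone called in 423. In 221 genes (6.25%) both changes were called with opposite signs, of which 82 were up with the knockdown and down with the treatment and 139 the other way. In the remaining 7, neither change was called. Aamp, at an adjusted p of 0.0499, lay just inside the threshold and Polr3c, at 0.0501, just outside.

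**Figure D1:**
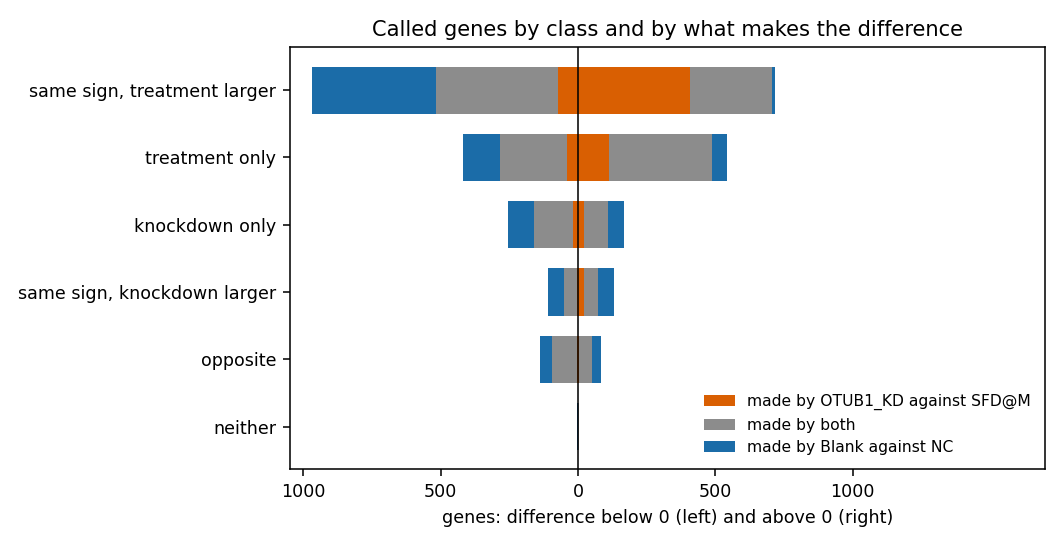
Number of called genes in each class of change (rows), with genes whose difference was below 0 to the left and above 0 to the right, coloured by which pair of groups made the difference. The row in which the treatment change was the larger holds 1685 genes and the opposite-sign row 221.

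The same difference is the sum of a pair of parts: OTUB1_KD minus SFD@M, the part of the treated groups, and Blank minus NC, the part of the controls. A difference was put down to the controls where their part made 75% or more of it, to the treated groups where the controls made 25% or less, and otherwise to both. Both made 1828 (51.7%), the controls 997 (28.2%) and the treated groups 711 (20.1%). Of the 711 made by the treated groups, 569 were above 0, and in 505 of these 569 both changes were below 0. Of the 997 made by the controls, 783 were below 0, with both changes above 0 in 522 of the 783. For opposite signs the controls made 76, the treated groups 7 and both 138. Ago4 and Jup lay on either side of the limit of 75%, and Dhx35 and Ndc1 on either side of 25%.

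Tested alone, the part of the treated groups was called in 18.7% of all genes (12.2% higher and 6.46% lower in OTUB1_KD than in SFD@M). The part of the controls was called in 17.6% (4.97% higher and 12.7% lower in Blank than in NC). Among the called differences, 371 had both parts called, 1163 only that of the treated groups, 1372 only that of the controls and 630 neither. The parts had opposite signs in 481. Over all genes, libraries of OTUB1_KD and SFD@M did not overlap in 28% and libraries of Blank and NC did not overlap in 63.8%. A control group held 3 counts or fewer in 123 of the 997 genes put down to the controls, and for those only levels are given below.

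**Figure D2:**
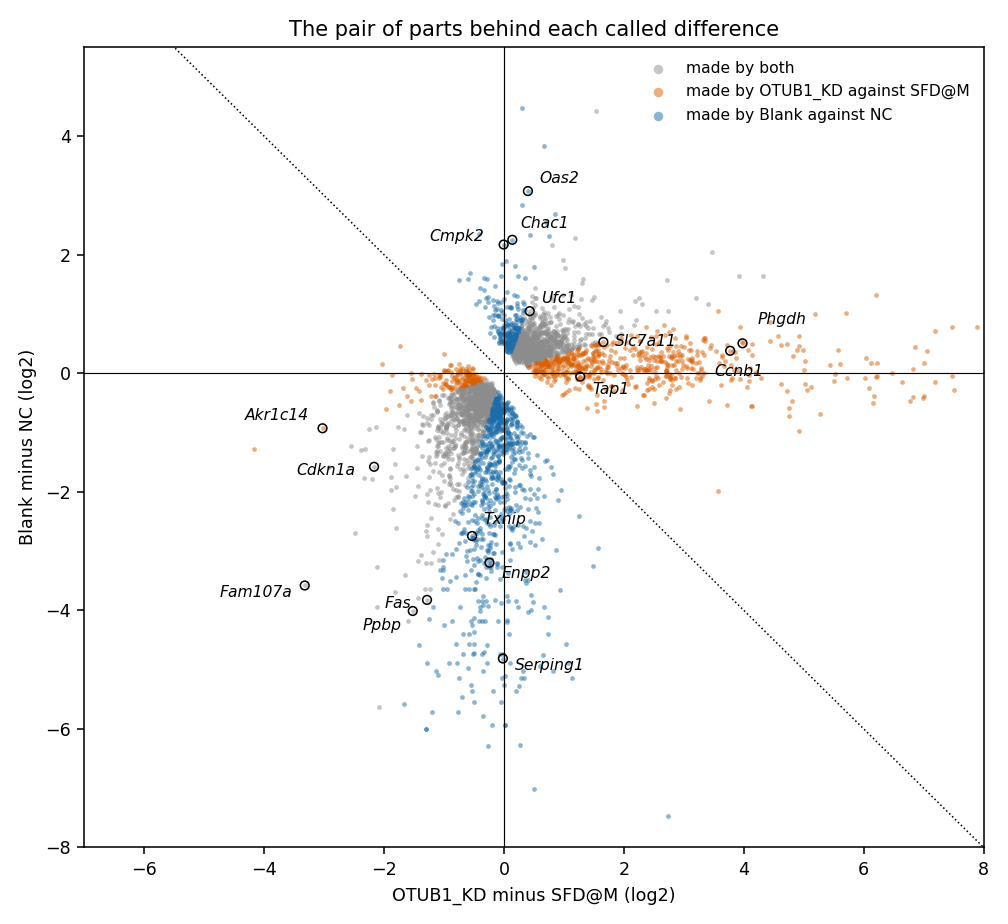
Each point is a called gene, with OTUB1_KD minus SFD@M on the x axis and Blank minus NC on the y axis (both log2); the dotted line marks a sum of 0, and 3 of the 3536 genes lie outside the axes. Genes made by the treated groups stretch to the right and genes made by the controls stretch down, with Ccnb1 and Serping1 as examples.

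Among genes of opposite sign, Ufc1 had the smallest p of those up with the knockdown. Ufc1 encodes the enzyme that conjugates UFM1, a ubiquitin-like protein. It stood at 73.2, 67.5 and 78.3 CPM in OTUB1_KD, against 36.9, 38.5 and 39.2 in NC, and at 56.6, 51.3 and 54.6 in SFD@M, against 78.7, 76.98 and 81.3 in Blank. The libraries of each pair were apart, with OTUB1_KD above NC and SFD@M below Blank. The knockdown change was 0.94 and the treatment change −0.54, and they differed by 1.48 ± 0.13 (log2 ± SE, adjusted p = 0.000116), of which Blank against NC made 70.9%. Adcy7, an adenylate cyclase, also drew on both parts. Its levels were 123, 112 and 130.3 CPM in OTUB1_KD, against 69.8, 66.9 and 68.9 in NC, and 82.6, 94.9 and 81.4 in SFD@M, against 119.9, 118 and 119.6 in Blank. OTUB1_KD and Blank thus stood at like levels, above NC and SFD@M, and the changes differed by 1.3 ± 0.14 (adjusted p = 0.000313). Rab3il1, an exchange factor for RAB3 proteins, differed by 2.06 ± 0.22 (adjusted p = 0.000319; parts of 1.23 for the treated groups and 0.83 for the controls).

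Only 3 of the 82 were put down to the treated groups, namely Itgb7, Socs1 and the kinase gene Map4k1. Socs1, a feedback inhibitor of cytokine signalling, stood at 12.05, 6.14 and 16.8 CPM in OTUB1_KD, against 5.18, 6.28 and 5.68 in NC, and at 2.12, 2.21 and 1.91 in SFD@M, against 6.44, 6.83 and 7.61 in Blank. SFD@M lay below every other group, while replicate 2 of OTUB1_KD lay within the NC range. The difference was 2.77 ± 0.43 (adjusted p = 0.00236), with 2.48 from the treated groups and 0.28 from the controls. Itgb7, an integrin chain of lymphocytes, stood at 202, 52.4 and 219 CPM in OTUB1_KD, against 68.7, 71.01 and 71.5 in NC, and at 36.6, 26.6 and 29.7 in SFD@M, against 73.01, 75.4 and 74.1 in Blank. Its OTUB1_KD replicates 1 and 3 were high and replicate 2 lay below NC. The difference of 2.42 ± 0.55 (adjusted p = 0.0114) was 2.84 without that library and 2.21 without replicate 1. Abhd15 shows the reverse origin. It stood at 3.6, 2.66 and 1.96 CPM in OTUB1_KD, against 1.42, 1.54 and 1.42 in NC, and at 3.09, 4.54 and 3.35 in SFD@M, against 7.94, 7.13 and 7.43 in Blank. SFD@M was on average no lower than OTUB1_KD, the Blank libraries were the highest, and the controls made 122% of a difference of 1.94 ± 0.36 (adjusted p = 0.0052), with a treated part of −0.42.

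Genes down with the knockdown and up with the treatment were led by Enpp2, which encodes autotaxin, the enzyme that makes the lipid signal lysophosphatidic acid. Enpp2 stood at 55.3, 65.9 and 53.7 CPM in OTUB1_KD, against 167, 162 and 161 in NC, and at 78.1, 67.5 and 61.1 in SFD@M, against 19.6, 15.7 and 18.1 in Blank. OTUB1_KD and SFD@M came close, while NC was the highest group and Blank the lowest. The difference of −3.44 ± 0.18 (adjusted p = 3.92e-06) was made by the controls, with −3.2 from Blank against NC and −0.24 from OTUB1_KD against SFD@M. Txnip, an inhibitor of thioredoxin that also limits glucose uptake, followed the same order. It stood at 598, 768 and 465 CPM in OTUB1_KD, against 2023, 2135 and 2123 in NC, and at 970.3, 747 and 932 in SFD@M, against 301, 312 and 323 in Blank (difference −3.28 ± 0.26, adjusted p = 8.47e-05, 83.8% from the controls). Sord, sorbitol dehydrogenase, was of the same kind, at −2.3 ± 0.22 (adjusted p = 0.000195, 76.6% from the controls).

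Ppbp, the platelet chemokine precursor, drew on both parts. It stood at 28.99, 27.6 and 15.3 CPM in OTUB1_KD, against 247, 247 and 257 in NC, and at 119, 57.05 and 30.5 in SFD@M, against 15.1, 16.3 and 15.1 in Blank. SFD@M spread widely, and its lowest library lay just above OTUB1_KD. Its difference was −5.53 ± 0.58 (adjusted p = 0.000319; −1.52 from the treated groups and −4.01 from the controls). The 9 measured platelet genes, Ppbp itself among them, summed to 69.4 to 97.9 CPM in OTUB1_KD, 317 to 329 in NC, 93.8 to 346 in SFD@M and 44.9 to 46.6 in Blank. Ppbp made most of the NC sum, and 2 of the 9 stood at 0 in NC and 1 in Blank. The part of these genes in the result was not tested. Gstm1, a glutathione transferase, stood at 142, 325 and 254 CPM in OTUB1_KD, against 395, 424 and 423 in NC, and at 443, 409.9 and 420.2 in SFD@M, against 178, 177 and 176 in Blank (difference −2.05 ± 0.32, adjusted p = 0.00248, made by both). Galnt15, an enzyme that starts sugar chains on proteins, differed by −3.65 ± 0.41 (adjusted p = 0.000479, made by both). With both changes at least 2-fold, 17 genes of opposite sign remained, 4 up with the knockdown (Apol9a, Itgb7, Prr22 and Socs1) and 13 down, Enpp2, Txnip, Ppbp, Sord and Galnt15 among them.

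**Figure D3:**
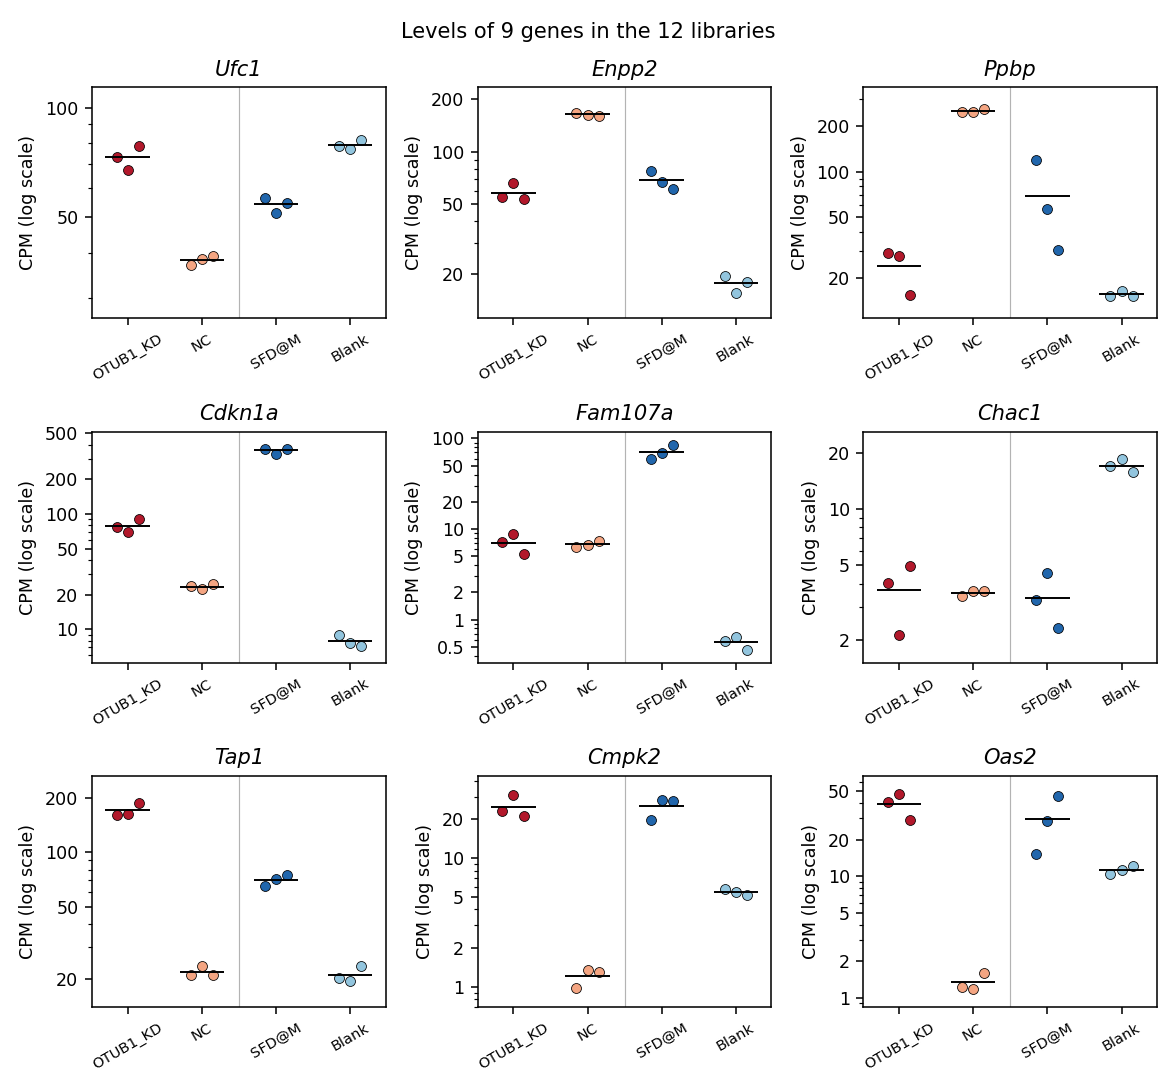
CPM on a log axis of 9 genes in OTUB1_KD, NC, SFD@M and Blank (points, 3 libraries a group; bars, group means). For Ufc1 and Enpp2 the pairs of groups run in opposite directions, for Cdkn1a and Fam107a the SFD@M and Blank libraries lie furthest apart, and for Chac1, Cmpk2 and Oas2 the 2 control groups differ more than the treated ones.

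Genes that were far lower in Blank than in NC made many of the differences in which the treatment change was the larger. Serping1, the inhibitor of the proteases that start the classical complement pathway, stood at 419.7, 773 and 586 CPM in OTUB1_KD, against 12.2, 10.8 and 10.4 in NC, and at 553, 574 and 674 in SFD@M, against 0.348, 0.292 and 0.527 in Blank. C3, the central complement protein, stood at 4424, 7767 and 8211 CPM in OTUB1_KD, against 136, 143 and 136 in NC, and at 3633, 5059.5 and 4309.8 in SFD@M, against 4.87, 5.67 and 4.74 in Blank. Both genes overlapped between OTUB1_KD and SFD@M and were far apart between Blank and NC. Serping1 differed by −4.83 ± 0.37 (adjusted p = 8e-05; treated part −0.02, control part −4.81). C3 differed by −4.11 ± 0.33 (adjusted p = 9.5e-05), with a treated part of 0.65 that ran against the control part of −4.76.

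Of 19 complement genes tested, 4 were called lower in the difference, against 12.4% of all genes, 0 were called higher, and all 4 were put down to the controls, C3 and Serping1 among them. In the acute phase list the origin was the same. Of its 23 genes tested 5 were called lower, against 12.4% of all genes, and 0 higher, all 5 put down to the controls. Lcn2, a lipocalin that binds iron carriers of bacteria, stood at 107, 101 and 166 CPM in OTUB1_KD, against 4.53, 5.48 and 5.25 in NC, and at 232, 139 and 233 in SFD@M, against 0.116, 0.175 and 0.41 in Blank. Its difference was −5.1 ± 0.5 (adjusted p = 0.000233, 86.4% from the controls). Neutrophil markers, a list that includes Lcn2 itself, summed to 471 to 1010 CPM in OTUB1_KD, 27.2 to 29.2 in NC, 1620 to 2860 in SFD@M and 4.78 to 5.87 in Blank, with 7 of 20 at 0 in NC and 8 in Blank. The part of neutrophils in the Lcn2 value was not tested. Lbp, the carrier of bacterial lipopolysaccharide, differed by −2.02 ± 0.31 (adjusted p = 0.0023, 78.2% from the controls). Of these 9 called members, 3 complement and 3 acute phase genes were also called in every fit that left out 1 library.

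Outside those lists, Selenbp1 and Selenbp2, which encode selenium-binding proteins, moved alike. Selenbp1 stood at 383, 576 and 518 CPM in OTUB1_KD, against 155, 163 and 167 in NC, and at 1333, 829 and 1008 in SFD@M, against 22.1, 20.8 and 23.1 in Blank. It was lowest in Blank and highest in SFD@M, with a difference of −3.98 ± 0.28 (adjusted p = 3.84e-05, 72.3% from the controls). For Selenbp2 the difference was −4.17 ± 0.24 (adjusted p = 8.33e-06, 75.5%); its sequence is close to that of Selenbp1 and the counting may split their reads. A4galt, an enzyme of globo-series glycolipids, stood at 20.04, 18.8 and 16.5 CPM in OTUB1_KD, against 15.5, 17.9 and 17.6 in NC, and at 30.9, 29.3 and 36.8 in SFD@M, against 2.9, 3.5 and 2.63 in Blank. OTUB1_KD and NC overlapped, so the difference of −3.31 ± 0.21 (adjusted p = 1.88e-05) rested on the treatment change of 3.42, and 75.5% of it came from the controls. Fmo2, a monooxygenase of lung, stood at 419, 933 and 562 CPM in OTUB1_KD, against 12.05, 12.3 and 10.2 in NC, and at 2919, 1742 and 1421 in SFD@M, against 0.174, 0.409 and 0.117 in Blank (difference −7.25 ± 0.62, adjusted p = 0.000116). Cd36, a fatty acid carrier, had 0 counts in Blank. It stood at 472, 697 and 579 CPM in OTUB1_KD, against 0.389, 0.431 and 0.309 in NC, and at 1178, 1520.5 and 1326 in SFD@M.

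Genes of cholesterol synthesis were higher in the difference. In the cholesterol synthesis list, whose genes answer to the factor SREBF2, 9 of 21 tested were called higher (against 10.7% of all genes) and 1 lower (against 12.4%), with a median of 0.69. Of these 10, 7 were made by both parts, 2 by the controls and 1 by the treated groups, and 7 were called in every fit that left out 1 library. Opposite signs were found in 3: Fdps, Cyp51 and Srebf2 itself. Fdps, which makes farnesyl diphosphate, stood at 97.5, 61.5 and 118 CPM in OTUB1_KD, against 50.3, 48.4 and 47.4 in NC, and at 62.5, 55.3 and 58.9 in SFD@M, against 89.5, 86.7 and 90.5 in Blank. Its difference was 1.52 ± 0.26 (adjusted p = 0.00379), that of Cyp51, a sterol demethylase, 1.31 ± 0.24 (adjusted p = 0.00521) and that of Srebf2 0.93 ± 0.14 (adjusted p = 0.00178).

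Targets of ATF4 were higher in the difference. Of 20 tested 13 were called higher, against 10.7% of all genes, and 0 lower, with a median difference of 1.86 (1.95 over 18 genes when those with a group at the floor of 3 counts were set to their bound or left out). Of the 13, 11 were called in every fit that left out 1 library. These 13 were put down to both parts in 8, to the treated groups in 3 and to the controls in 2. Both parts leaned the same way, with medians of 0.47 for the treated groups and 0.77 for the controls. In OTUB1_KD 9 of the 20 were higher than in SFD@M, against 12.2% of all genes. In Blank 8 of the 20 were higher than in NC, against 4.97% of all genes. Summed over the list, levels were 1454, 708 and 1196 CPM in OTUB1_KD, 2078, 2060 and 2105 in NC, 763, 713 and 725 in SFD@M and 3616, 3612 and 3602 in Blank. Blank was the highest group, and replicate 2 of OTUB1_KD lay among the SFD@M libraries.

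Atf4 itself stood at 269, 158 and 215 CPM in OTUB1_KD, against 243, 255 and 259 in NC, and at 154, 145 and 151 in SFD@M, against 592, 618 and 615 in Blank. OTUB1_KD ran from just above SFD@M to above NC, and Blank was apart at the top. The difference was 1.78 ± 0.23 (adjusted p = 0.000889, 71.2% from the controls). Chac1, an enzyme that degrades glutathione, stood at 4.05, 2.12 and 4.97 CPM in OTUB1_KD, against 3.43, 3.63 and 3.64 in NC, and at 3.26, 4.54 and 2.31 in SFD@M, against 16.9, 18.5 and 15.7 in Blank. Every group but Blank overlapped, so the difference of 2.39 ± 0.43 (adjusted p = 0.00471) was that of the controls, at 2.25, with 0.14 for the treated groups. Slc1a4, a neutral amino acid carrier, was of the same kind. It stood at 33.05, 40.7 and 42.1 CPM in OTUB1_KD, against 34.5, 33.9 and 33.7 in NC, and at 33.4, 35.3 and 30.4 in SFD@M, against 73.9, 75.5 and 76 in Blank (difference 1.37 ± 0.15, adjusted p = 0.000438, 83.6% from the controls). Atf5 differed by 1.92 ± 0.26 (adjusted p = 0.00129, 98.4% from the controls), yet here Blank lay with OTUB1_KD and SFD@M and NC was the low group.

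Slc7a11, the cystine importer that feeds glutathione synthesis and holds back ferroptosis, took its difference from the treated groups. It stood at 81.5, 31.2 and 113 CPM in OTUB1_KD, against 99.4, 105 and 107 in NC, and at 18.1, 26.7 and 26.9 in SFD@M, against 151, 156 and 142 in Blank. SFD@M was below every other group, and replicate 2 of OTUB1_KD came nearest to it. The difference was 2.19 ± 0.49 (adjusted p = 0.0112; treated part 1.66, control part 0.53). Genes of serine synthesis and of the mitochondrial folate cycle went with it. Phgdh, the entry enzyme of serine synthesis, stood at 176, 17.2 and 134 CPM in OTUB1_KD, against 529, 503 and 522 in NC, and at 7.09, 6.46 and 7.17 in SFD@M, against 741, 735 and 729 in Blank. Replicate 2 of OTUB1_KD was again close to SFD@M and the other 2 lay between the groups (difference 4.49 ± 0.82, adjusted p = 0.00479). Mthfd2 differed by 4.56 ± 0.8 (adjusted p = 0.00413), Shmt2 by 3.1 ± 0.61 (adjusted p = 0.00656), Psat1 by 2.51 ± 0.56 (adjusted p = 0.0112) and Asns, asparagine synthetase, by 1.99 ± 0.49 (adjusted p = 0.0166), all put down to both parts. Psph, the last enzyme of serine synthesis, differed by 1.81 ± 0.25 (adjusted p = 0.00146), with 70.1% from the controls.

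The promoters of Chac1 and Slc7a11 are shown because their differences had unlike origins while both hold the motif that ATF4 binds with CEBP factors. The letters searched were TGATGNAA on both strands, and matches are in capitals in 250 bases before to 50 after the start of the RefSeq gene (build GRCm38.p6, which is not the GRCm39 of the authors' processing; the strand of the gene is printed).
Chac1, chr2:119350992-119351291, plus strand: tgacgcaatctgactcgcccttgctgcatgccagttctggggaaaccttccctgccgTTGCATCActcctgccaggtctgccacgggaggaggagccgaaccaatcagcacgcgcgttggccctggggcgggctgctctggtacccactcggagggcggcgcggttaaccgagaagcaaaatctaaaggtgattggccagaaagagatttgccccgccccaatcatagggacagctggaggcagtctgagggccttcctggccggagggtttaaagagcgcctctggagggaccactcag
Slc7a11, chr3:50443564-50443863, minus strand: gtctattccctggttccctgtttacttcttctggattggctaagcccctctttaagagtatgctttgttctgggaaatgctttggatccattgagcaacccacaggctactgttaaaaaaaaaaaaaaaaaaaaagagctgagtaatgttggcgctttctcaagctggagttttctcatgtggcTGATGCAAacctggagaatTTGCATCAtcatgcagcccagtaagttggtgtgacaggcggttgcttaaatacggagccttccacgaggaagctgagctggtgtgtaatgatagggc
Chac1 had 1 match, 193 bases before the start, and Slc7a11 had 2, 66 and 47 bases before it. The motif was found in 4.51% of 27025 genes with a promoter in the table, and in 5 of 18 ATF4 targets that were tested and had one (Asns, Chac1, Slc7a11, Trib3 and Vldlr). A match describes letters and shows no binding.

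Interferon-stimulated genes were higher in the difference. Of 23 type I interferon genes tested 13 were called higher, against 10.7% of all genes, and 0 lower, with a median of 1.4 (1.29 over 22 at the bound). Of the 13, 5 were put down to the controls, 6 to both parts and 2 to the treated groups, and 8 were called in every fit that left out 1 library. Without OTUB1_KD replicate 2, 11 were called higher and 1 lower, and without replicate 3, 9 and 0. Summed levels were 1381, 1536 and 1503 CPM in OTUB1_KD, 297, 297 and 296 in NC, 766, 997 and 1122 in SFD@M and 373, 362 and 381 in Blank, so OTUB1_KD was the highest group and NC the lowest. Oas2, an antiviral oligoadenylate synthetase, stood at 40.8, 47.5 and 29.1 CPM in OTUB1_KD, against 1.23, 1.17 and 1.61 in NC, and at 15.2, 28.2 and 45.5 in SFD@M, against 10.5, 11.3 and 12.1 in Blank. OTUB1_KD and SFD@M overlapped, while Blank lay well above NC (difference 3.47 ± 0.5, adjusted p = 0.00164, 88.5% from the controls). Cmpk2, a mitochondrial nucleotide kinase, stood at 23.3, 30.9 and 21.1 CPM in OTUB1_KD, against 0.971, 1.35 and 1.3 in NC, and at 19.9, 28.1 and 27.6 in SFD@M, against 5.8, 5.49 and 5.15 in Blank. Its treated part was −0.01 and its control part 2.17, of a difference of 2.17 ± 0.29 (adjusted p = 0.00119).

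Ifi44 (3.26 ± 0.47, adjusted p = 0.00171) and Ifi27l2a (3.15 ± 0.62, adjusted p = 0.00656) were likewise made by the controls. Oas1a drew on both parts in like measure. It stood at 26.8, 25.1 and 34.3 CPM in OTUB1_KD, against 7.12, 7.51 and 6.98 in NC, and at 8.81, 15.7 and 21.2 in SFD@M, against 13.8, 12.3 and 14.5 in Blank. OTUB1_KD was the highest group, and Blank lay above NC (difference 1.82 ± 0.37, adjusted p = 0.0071; parts of 0.91 for the treated groups and 0.91 for the controls). Oasl1 had opposite signs, with a knockdown change of 1.63 and a treatment change of −0.91 (difference 2.54 ± 0.47, adjusted p = 0.00505). Apol9b, of the interferon-inducible apolipoprotein L family, was called in the knockdown change only, at 21.6, 21.2 and 26.9 CPM in OTUB1_KD, against 4.14, 4.19 and 3.71 in NC, and 6.24, 7.45 and 10.9 in SFD@M, against 9.57, 9.93 and 10.1 in Blank (difference 2.8 ± 0.29, adjusted p = 0.000298). Its close copy Apol9a differed by 2.58 ± 0.44 (adjusted p = 0.00367), and reads of the pair may be split between them.

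The Oas1a promoter is shown for its interferon-stimulated response element, searched on both strands as GAAA, any 2 bases and GAAA, with matches in capitals (RefSeq, GRCm38.p6, 250 bases before to 50 after the start).
Oas1a, chr5:120907476-120907775, minus strand: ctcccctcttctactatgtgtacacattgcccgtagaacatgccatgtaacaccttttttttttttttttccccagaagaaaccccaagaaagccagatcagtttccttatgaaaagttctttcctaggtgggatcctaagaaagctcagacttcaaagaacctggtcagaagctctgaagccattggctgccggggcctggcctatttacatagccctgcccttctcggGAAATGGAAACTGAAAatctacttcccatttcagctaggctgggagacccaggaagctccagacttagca
It holds 2 overlapping matches, 20 and 14 bases before the start. The motif was in 3.99% of 27025 genes with a promoter, in 10 of 17 type I interferon genes tested with one and in 3 of 9 of those called higher. The promoters of Ifih1 and Ifit3 matched too, and those genes were not called, at differences of −0.28 (adjusted p = 0.43) and 0.22 (adjusted p = 0.725).

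Genes answering to interferon-gamma were also higher in the difference. Of 18 tested 10 were called higher, against 10.7% of all genes, and 0 lower, 7 by the treated groups and 3 by both. All 18 were higher in OTUB1_KD than in SFD@M (called on that part alone, against 12.2% of all genes), while 4 were lower in Blank than in NC, against 12.7%. The medians were 1.33 for the treated groups and −0.13 for the controls. Irgm1, a GTPase against intracellular microbes, stood at 194, 128 and 146 CPM in OTUB1_KD, against 25.2, 25.3 and 23.8 in NC, and at 60.1, 69.1 and 94.95 in SFD@M, against 26.2, 27.3 and 27.03 in Blank. NC and Blank were close, and OTUB1_KD lay above SFD@M. It differed by 1.18 ± 0.25 (adjusted p = 0.00962) and Igtp, of the same family, by 1.35 ± 0.33 (adjusted p = 0.0167), with control parts of 0.12 and −0.06. T cell markers summed to 210 to 291 CPM in OTUB1_KD, 16.2 to 17.2 in NC, 152 to 194 in SFD@M and 6.68 to 7.35 in Blank, with 3 of 19 at 0 in NC and 8 in Blank. Markers of NK and cytotoxic cells overlapped between the treated groups. They summed to 120 to 144 CPM in OTUB1_KD, 1.25 to 1.74 in NC, 92.1 to 192 in SFD@M and 1.63 to 2.27 in Blank. Of these 14 markers, 9 stood at 0 in NC and 11 in Blank. The part of either list in these values was not tested.

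Cd274, the checkpoint ligand PD-L1, stood at 80.96, 55.4 and 81.4 CPM in OTUB1_KD, against 13.8, 14.7 and 12.04 in NC, and at 26.7, 21.2 and 27.4 in SFD@M, against 9.28, 9.29 and 9.77 in Blank. Both changes were upward and the knockdown change was the larger. The parts opposed each other, 1.53 for the treated groups and −0.52 for the controls, which left a difference of 1.01 ± 0.23 (adjusted p = 0.0122). Opposed parts were also found in Cxcl10, a chemokine that draws T cells, at 78.7, 60.3 and 90.9 CPM in OTUB1_KD, against 9.71, 11.1 and 10.4 in NC, and 3.72, 5.59 and 10 in SFD@M, against 2.55, 2.86 and 2.46 in Blank. Its treated part of 3.57 was cut by a control part of −1.99 to 1.58 ± 0.42 (adjusted p = 0.0214). That call was lost without NC replicate 1, Blank replicate 2 or SFD@M replicate 2, at differences of 1.54, 1.52 and 1.49. In MHC class I presentation, 8 of 20 genes tested were called higher, against 10.7% of all genes, and 0 lower. In OTUB1_KD 15 were higher than in SFD@M, against 12.2% of all genes. In Blank 4 were lower than in NC, against 12.7%, and 1 was higher, against 4.97%. Tap1, the peptide transporter, stood at 160.2, 162 and 188 CPM in OTUB1_KD, against 20.9, 23.6 and 20.9 in NC, and at 65.2, 70.8 and 75.2 in SFD@M, against 20.1, 19.5 and 23.4 in Blank (difference 1.22 ± 0.16, adjusted p = 0.000962; control part −0.06). Psmb10, an immunoproteasome subunit, drew on both parts (difference 2.17 ± 0.3, adjusted p = 0.00141).

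Targets of p53 ran the other way. Of 18 tested 10 were called lower and 0 higher, against 12.4% of all genes, with a median of −1.43 (−1.49 over 17 at the bound), and 7 were called in every fit that left out 1 library. In OTUB1_KD 11 were lower than in SFD@M, against 6.46% of all genes. In Blank 5 were lower than in NC, against 12.7% of all genes, and 1 was higher, against 4.97%. Summed levels were 799, 996 and 718 CPM in OTUB1_KD, 555, 557 and 559 in NC, 1970, 1890 and 2031 in SFD@M and 545, 543 and 544 in Blank, so SFD@M stood apart above the rest. Cdkn1a, which encodes the cell cycle inhibitor p21, stood at 76.8, 70.1 and 90.8 CPM in OTUB1_KD, against 23.6, 22.4 and 24.7 in NC, and at 369, 329 and 369.5 in SFD@M, against 8.87, 7.59 and 7.2 in Blank. All 4 groups were apart. Both changes were upward, by 1.75 with the knockdown and 5.49 with the treatment, and differed by −3.75 ± 0.18 (adjusted p = 1.96e-06; −2.17 from the treated groups, −1.58 from the controls).

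Fas, a death receptor, stood at 36.7, 43.98 and 24.8 CPM in OTUB1_KD, against 1.68, 2.03 and 2.35 in NC, and at 79.2, 73.3 and 104 in SFD@M, against 0.116, 0.175 and 0.117 in Blank (difference −5.11 ± 0.46, adjusted p = 0.000147, 74.9% from the controls). Trp53inp1, a p53-induced stress protein, stood at 84.6, 118 and 44.5 CPM in OTUB1_KD, against 27.1, 25.2 and 27.2 in NC, and at 274, 286 and 298 in SFD@M, against 6.2, 6.89 and 7.84 in Blank (difference −3.72 ± 0.38, adjusted p = 0.000298). In both, SFD@M was highest and Blank lowest, with OTUB1_KD and NC between. Ccng1, a cyclin, was high in SFD@M. It stood at 114, 122 and 67 CPM in OTUB1_KD, against 68.9, 67.8 and 62.8 in NC, and at 358, 364 and 391 in SFD@M, against 64.9, 65.9 and 63.7 in Blank (difference −1.91 ± 0.26, adjusted p = 0.00121; control part −0.04). Eda2r, a receptor of the TNF family, was alike, at −1.93 ± 0.41 (adjusted p = 0.00927; control part −0.25). Bbc3, the pro-apoptotic PUMA, drew on both (−1.64 ± 0.33, adjusted p = 0.00681). Trp53 itself went the opposite way to its targets, at 80.6, 48.8 and 72.8 CPM in OTUB1_KD, against 79.6, 75.7 and 80.7 in NC, and 36.1, 39.4 and 36.1 in SFD@M, against 115, 119 and 117 in Blank (difference 1.43 ± 0.22, adjusted p = 0.00206, made by both).

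The smallest p of all downward differences was that of Fam107a, an actin-binding protein that glucocorticoids induce. It stood at 7.15, 8.8 and 5.31 CPM in OTUB1_KD, against 6.41, 6.71 and 7.35 in NC, and at 59.9, 68.4 and 84.8 in SFD@M, against 0.58, 0.642 and 0.468 in Blank. OTUB1_KD and NC overlapped, SFD@M lay far above them and Blank far below. The difference was −6.91 ± 0.32 (adjusted p = 1.96e-06), with −3.32 from the treated groups and −3.58 from the controls. In the glucocorticoid list 9 of 15 genes tested were called lower, against 12.4% of all genes, and 0 higher (median −2.31, or −2.02 over 14 at the bound), and 8 of the 9 were called in every fit that left out 1 library. These 9 include Cdkn1a, counted above among the p53 targets, and Lcn2, also given above, so the lists share members. Of the 15 genes, 9 were lower in OTUB1_KD than in SFD@M, against 6.46% of all genes, and 7 were lower in Blank than in NC, against 12.7%. Tsc22d3, the glucocorticoid-induced leucine zipper, stood at 118, 181 and 105 CPM in OTUB1_KD, against 34.5, 34.4 and 40.1 in NC, and at 415, 423 and 398 in SFD@M, against 22.2, 21.5 and 23.5 in Blank (difference −2.31 ± 0.25, adjusted p = 0.000392). Klf9 differed by −2.34 ± 0.32 (adjusted p = 0.00129), Errfi1, a brake on EGF receptor signalling, by −1.3 ± 0.21 (adjusted p = 0.00276) and the kinase gene Sgk1 by −1.37 ± 0.29 (adjusted p = 0.00914), each made by both parts.

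Genes of the circadian clock were also lower in the difference. Of 17 tested 9 were called lower, against 12.4% of all genes, and 0 higher, 4 by the controls, 4 by both parts and 1 by the treated groups, with 6 called in every fit that left out 1 library. Per2, a repressor of the clock, stood at 32.3, 55.2 and 30.01 CPM in OTUB1_KD, against 15.2, 12.4 and 15.01 in NC, and at 75.1, 73.99 and 81.5 in SFD@M, against 7.77, 7.53 and 7.72 in Blank (difference −1.86 ± 0.29, adjusted p = 0.0023, made by both). Nr1d1, the repressor REV-ERB alpha, stood at 74.99, 149 and 137 CPM in OTUB1_KD, against 26.9, 24.8 and 25.4 in NC, and at 97.3, 151 and 173 in SFD@M, against 9.22, 9.05 and 10.4 in Blank. There the treated groups overlapped and NC lay above Blank (difference −1.65 ± 0.36, adjusted p = 0.0102, 86.7% from the controls). Per3 was alike (−1.77 ± 0.34, adjusted p = 0.00587, 77.6%), and Tef drew on both parts (−1.54 ± 0.27, adjusted p = 0.00399). The labels give no hour of collection, so its part in these values was not tested.

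**Figure D4:**
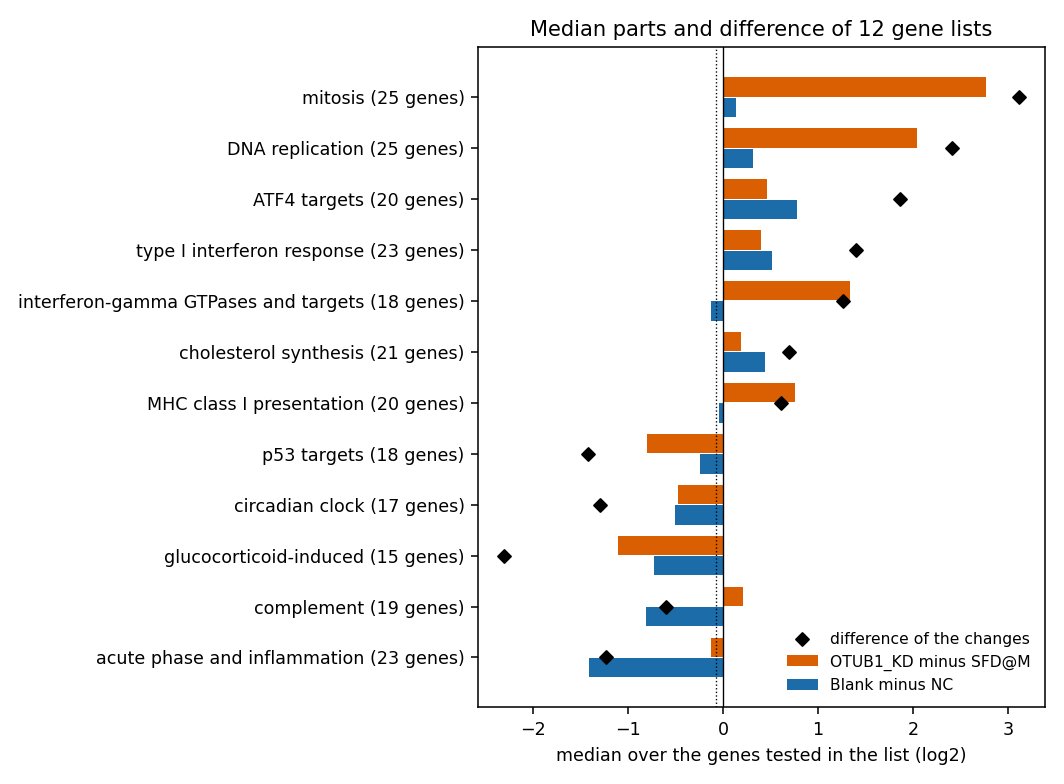
Median over the genes tested of OTUB1_KD minus SFD@M and of Blank minus NC (bars) and of the difference of the changes (diamonds) in 12 lists, all on the log2 scale; the dotted line is the median difference of all genes, −0.07. The bar of the treated groups is the longer one for mitosis, DNA replication and interferon-gamma targets, and the bar of the controls for ATF4, complement and acute phase genes.

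Genes of cell division were higher in the difference, mostly through the treated groups. Of 25 mitosis genes tested 24 were called higher, against 10.7% of all genes, and 0 lower, with a median of 3.12 (2.77 for the treated groups, 0.14 for the controls), and 17 were called in every fit that left out 1 library. The treated groups made 23 of the 24. Both changes were downward and the treatment change was the larger. Ccnb1, a mitotic cyclin, stood at 90.7, 12.3 and 48.3 CPM in OTUB1_KD, against 231, 231 and 230.4 in NC, and at 2.06, 4.13 and 4.86 in SFD@M, against 308, 298 and 294 in Blank (difference 4.15 ± 0.76, adjusted p = 0.00492). Plk1, a mitotic kinase, stood at 38.3, 10.3 and 26.4 CPM in OTUB1_KD, against 68.5, 69.9 and 68.99 in NC, and at 1.66, 4.31 and 5.15 in SFD@M, against 111, 113 and 113 in Blank (difference 3.46 ± 0.6, adjusted p = 0.00387). Replicate 2 of OTUB1_KD was the lowest of its group in both and replicate 1 the highest. Of 25 DNA replication genes 24 were called higher, against the same 10.7%, and 0 lower (median 2.41), 21 by the treated groups, and 19 were called in every fit that left out 1 library. Tk1, thymidine kinase, stood at 43.5, 9.23 and 32.3 CPM in OTUB1_KD, against 87.04, 80.5 and 80.9 in NC, and at 1.37, 3.32 and 3.59 in SFD@M, against 118, 122 and 121 in Blank (difference 3.9 ± 0.65, adjusted p = 0.00334). Mki67, the proliferation marker, missed the threshold (2.2 ± 0.75, adjusted p = 0.0545). Mcm2, of the replicative helicase, differed by 2.58 ± 0.43 (adjusted p = 0.00335). Tyms, thymidylate synthase, was an exception in drawing on both parts (2.01 ± 0.34, adjusted p = 0.00374, 46.1% from the controls).

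Transcripts of the Y chromosome, listed as marks of the tumour line, moved with these genes. All 4 tested were called higher, against 10.7% of all genes, and 0 of them in every fit that left out 1 library. They summed to 127, 0.636 and 24.5 CPM in OTUB1_KD, 348, 348 and 340.5 in NC, 1.64, 0.176 and 0.589 in SFD@M and 368, 375 and 372 in Blank. That was 36.9%, 0.184% and 7.08% of the NC mean in OTUB1_KD replicates 1, 2 and 3, and 0.442%, 0.0475% and 0.158% of the Blank mean in SFD@M. Erythroid markers, 11 measured, summed to 6780 to 13400 CPM in OTUB1_KD, 27.9 to 28.1 in NC, 35 to 250 in SFD@M and 22.2 to 25.2 in Blank. The part of these genes in the result was not tested. Summed mitosis genes stood at 2121, 497 and 832 CPM in OTUB1_KD, 5716, 5634 and 5575 in NC, 67.2, 184 and 237 in SFD@M and 6295, 6239 and 6246 in Blank. OTUB1_KD replicate 1 was thus highest of the treated libraries on both sums. Among the 569 genes put down to the treated groups and above 0, OTUB1_KD replicate 2 was the lowest of its group in 92.6% (31% of all genes) and replicate 1 the highest in 77.2% (37.5% of all genes). Without replicate 1, 21 of 25 mitosis genes were called, with a median of 2.22. Without replicate 2 all 25 were called (median 3.47), and so they were without replicate 3 (3.22). Genes put down to the treated groups numbered 711 with all libraries and 1893 without OTUB1_KD replicate 2.

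**Figure D5:**
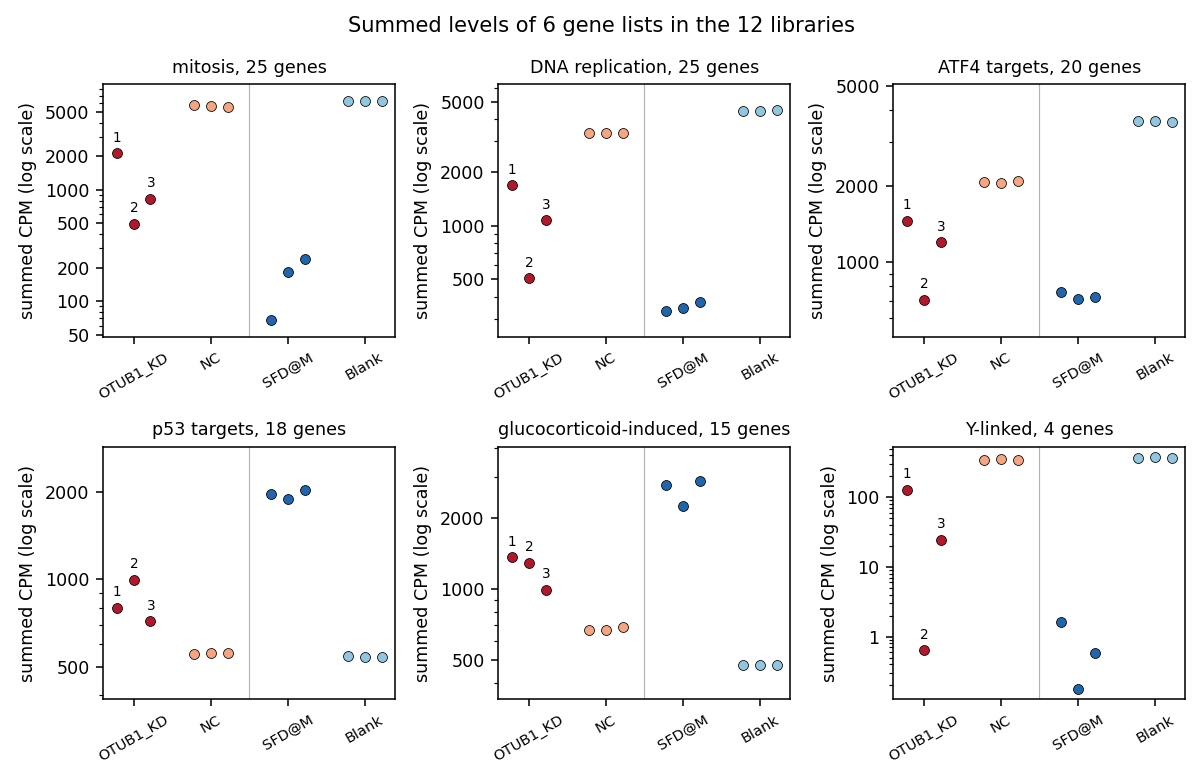
Summed CPM, on a log axis, of 6 gene lists in each library of OTUB1_KD, NC, SFD@M and Blank, with the replicate number printed above the OTUB1_KD points. For mitosis, DNA replication and Y-linked genes OTUB1_KD replicate 1 is the highest treated library and replicate 2 the lowest of its group; for p53 and glucocorticoid genes SFD@M lies above all other groups.

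Differences below 0 were seldom put down to the treated groups (142 genes), and in 100 of the 142 both changes were above 0. Akr1c14, a steroid-reducing enzyme, stood at 57.8, 64.1 and 34.03 CPM in OTUB1_KD, against 32.5, 35.4 and 33.7 in NC, and at 703, 252 and 317 in SFD@M, against 17.5, 16.8 and 19.1 in Blank (difference −3.96 ± 0.49, adjusted p = 0.000734). OTUB1_KD came close to NC, while SFD@M lay far above all. Calcrl, the receptor of adrenomedullin and of calcitonin gene-related peptide, stood at 234, 564 and 266 CPM in OTUB1_KD, against 34.1, 33.2 and 34.5 in NC, and at 1285, 1554 and 1143 in SFD@M, against 28.6, 27.04 and 27.1 in Blank (difference −2.2 ± 0.4, adjusted p = 0.0045). Endothelial markers summed to 1815 to 4483 CPM in OTUB1_KD, 160 to 164 in NC, 4272 to 5662 in SFD@M and 63.1 to 67.0 in Blank, and their part in the Calcrl value was not tested. Slc38a4, an amino acid carrier, differed by −1.99 ± 0.32 (adjusted p = 0.00272; treated part −1.62, control part −0.38).

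The series title names deubiquitination and ferroptosis. Of 22 suppressors of ferroptosis tested 2 were called higher and 3 lower, about the shares over all genes (10.7% and 12.4%). Of 21 drivers 5 were called higher (23.8%, against 10.7% of all genes) and 2 lower (9.52%, against 12.4%). Among these 7 called drivers, 3 were called in every fit that left out 1 library. In Blank 7 of the 21 drivers were higher than in NC, against 4.97% of all genes, and 1 was lower, against 12.7%. Beside Slc7a11 and Chac1, Gch1, the entry enzyme of tetrahydrobiopterin synthesis, was lower in the difference at −1.01 ± 0.2 (adjusted p = 0.00745, 92.6% from the controls), and Steap3, an iron reductase, was higher at 1.76 ± 0.31 (adjusted p = 0.00444, made by both). Gpx4, the peroxidase that repairs lipids, stood at 199, 256 and 309 CPM in OTUB1_KD, against 188, 209.7 and 213 in NC, and at 303, 232 and 227 in SFD@M, against 181, 174 and 188 in Blank. Its difference of −0.16 ± 0.24 was within its error (adjusted p = 0.659). Among 13 OTU deubiquitinases tested 4 were called lower, against 12.4% of all genes, and 0 higher (Otud1, Otud7b, Tnfaip3 and Zranb1), and 1 of the 4 was called in every fit that left out 1 library.

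Otub1, the knockdown target, stood at 57.7, 46.3 and 71.8 CPM in OTUB1_KD, against 79.3, 76.6 and 72.8 in NC, and at 46.1, 45 and 47.2 in SFD@M, against 77.9, 73.9 and 73.8 in Blank. Its knockdown change was −0.38 and its treatment change −0.71. OTUB1_KD replicate 3, at 71.8 CPM, lay just below the lowest NC library, at 72.8. The changes did not differ at the threshold (0.33 ± 0.19, adjusted p = 0.242). Sftpc, a surfactant gene with 3 counts or fewer in each control group, was not called (adjusted p = 0.958), nor was the leukocyte gene Ptprc (adjusted p = 0.471). Genes given above with the size and error of a called difference were also called in the same direction in all 12 fits that left out 1 library, apart from Cxcl10. Genes only named, such as Otud1 and Aamp, were not all called in every such fit.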

How the data were processed

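RNA of 12 mouse lung cancer samples was enriched for messenger RNA with oligo(dT) and sequenced, per the labels' protocols. In the deposited table, 70659 transcripts have estimated read counts (expected counts), TPM and normalized counts, which are a signal scaled by the authors, per the file headers; its 12 FPKM columns were not used. Tools named are RSEM 1.3.1, Bowtie2 and DESeq2 1.4.5, on GRCm39, per the submitters' processing notes. Whether reads were counted by strand is not given in the sources used here; overlapping or antisense genes and close copies are therefore uncertain.

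Counts were summed per Entrez gene, rounded, and named from RefSeq (19155 of 19212; the unnamed held at most 0.342% of counts). One fit of 12 libraries used edgeR 4.0.16 in R 4.3.3: filterByExpr on the groups, TMM (factors 0.960 to 1.06), robust quasi-likelihood tests, Benjamini-Hochberg adjustment over 15304 genes. SE is the absolute log2 fold change over the root of F. The script was tested on simulated counts with known changes, put into OTUB1_KD alone. It recovered 100 of 100 changes of 4-fold and 67 of 100 of 2-fold. The simulation gave all genes and groups the same spread (dispersion 0.02). The unlike spread of the real groups was not simulated, so these shares do not carry over to the data. The members and gene lists were chosen with earlier results of these data known.

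Genes were named by rank of p or size within each class, direction and origin, at 1 CPM or more in a group, leaving out predicted genes and receptor segments, with Otub1, Mki67, Ptprc and Sftpc, and list members of smallest p where a list was called more often than all genes; other list members are given as values, chosen after they were seen. Whole reads were recovered from the deposited normalized counts for 100% of values (tolerance 0.001). Same-numbered libraries did not deviate together more than others. Their correlations were −0.221 to 0.114 in 18 pairs, 1 of them over 0.1. Libraries of unlike number gave −0.239 to 0.218 in 36 pairs, 2 of them over 0.1. The numbers were therefore not used as pairs in the main fit. Alternatives were other scalings and filters, DESeq2 1.42.0, limma 3.58.1 (voom, and log2 of TPM plus 1 or 0.1), a replicate block, recovered reads and each library left out.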

Additional observations from a re-analysis of the deposited data

How the results depend on the processing

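Leaving out 1 library at a time gave 866 to 2882 genes above 0 and 1183 to 2703 below 0, with 52 to 205 up and down and 100 to 216 down and up among opposite signs, 349 to 1893 put down to the treated groups, 623 to 1439 to the controls and 1094 to 2650 to both; the highest value of each range came without OTUB1_KD replicate 1 or 2, and the lowest without an NC or Blank library. All 12 of these fits called 1802 of the 3536 genes in the same direction, and all 12 other alternatives called 1791. Total counts in place of TMM gave 130 and 85 of opposite sign. Limits of 60% and 40% put 1146 down to the treated groups, 1540 to the controls and 850 to both. With both changes at least 2-fold, 4 and 13 opposite genes were left. Calls above and below 0 were 2219 and 2222 with DESeq2, 1261 and 1732 with limma-voom, and 2186 and 1495 on log2(TPM + 1). On log2(TPM + 1) 59.4% were above 0 in place of 46.5%, and the cause was not tested. With limma-voom and a spread per group, 1415 and 1907 were called, and 56 and 108 had opposite signs. That fit called 2679 of the 3536 genes in the same direction (75.8%), the fewest of the 12 alternatives that kept all libraries. With the replicate block 1295 and 1725 were called, and with the recovered reads, an alternative chosen after seeing the data, 1647 and 1899. The uncalled difference of Sftpc turned negative with limma-voom (−0.17, also with a spread per group, −0.17), on log2(TPM + 1) (−0.25) and log2(TPM + 0.1) (−0.0901), and without NC replicate 3 (−0.30), OTUB1_KD replicate 3 (−0.03) or Blank replicate 1 (−0.63; range over libraries left out −0.63 to 0.74), and that of Ptprc turned positive without NC replicate 1 (1.77; range −3.37 to 1.77). Of 118 genes named by rule, the 114 named by rank were called and 88 of those kept their call in every alternative; the other 4, named whatever their p, were not called. Counts within NC and within Blank differed by at most 1.95 times the sampling variance, while the fit shares 1 estimate of the spread per gene with the more variable OTUB1_KD and SFD@M libraries; genes with few counts in the controls, such as Sftpc, are measured poorly.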
